A study of Mus musculus with 8 samples.

Results

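Collagens are the structural proteins of the extracellular matrix, and each chain of a collagen triple helix is encoded by its own gene. The genes described here are the mouse collagen chain genes, taken by symbol (Col, a type number, a, a chain number) with at least 1 count in at least 4 of 8 libraries. There were 41 such genes among the 25572 genes of the table. They comprised 8 fibrillar, 7 cartilage, 8 network and 9 basement membrane chains, and 9 fibril-associated, transmembrane and other chains. Just inside the rule was Col6a5, with 5, 6, 96 and 67 counts in 4 libraries and none in the others. Just outside it was Col17a1, the transmembrane collagen of hemidesmosomes, with 35 counts in CD54-positive replicate 1 and 1 count in CD54-positive replicate 3.

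Fibrillar chains such as Col1a1, Col1a2 and Col3a1 build the fibres of skin, bone and tumour stroma, and fibroblasts and related mesenchymal cells are their usual source. Type IV collagen (Col4a1 to Col4a6) forms the sheet of basement membranes, type VI forms beaded filaments, and type VIII forms lattices beneath endothelium and in the eye. Types II, IX, X and XI are the collagens of cartilage. Neutrophils are known for enzymes that cut collagen and not for making it.

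RNA was measured in neutrophils sorted from PyMT-N tumours carried by C57/B6 mice, separated by surface CD54, which is the adhesion molecule ICAM1. Each fraction, CD54-positive (ICAM1-high) and CD54-negative (ICAM1-low), had 4 libraries with the numbers 1, 2, 3 and 5, made from 150 pg of total RNA. Both groups came from tumour-bearing mice. The labels and notes used here do not state the age or number of the mice, or whether they were pooled. No agent or allele is named that differs between the fractions. Whether each library is a separate animal is not stated either, and the p-values below then reflect library-to-library spread that may be technical.

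Library totals were 15940080 to 21824788 estimated counts, of which 20273 to 147034 fell on collagen chain genes. Levels are given as CPM (counts scaled to library size after TMM). A floor of 3 counts, which covers counting error alone, was 0.121 to 0.263 CPM. Icam1, the gene of the sorted protein, stood at 18.7, 9.23, 4.31 and 138 CPM in CD54-negative and at 48.2, 58.4, 42.4 and 122 CPM in CD54-positive replicates 1, 2, 3 and 5. Its mRNA in CD54-negative replicate 5 was thus above every CD54-positive library, so this name means the library labelled so throughout. Both libraries numbered 5 also stood apart from the rest in their collagens. Values of replicates 1 to 3 are therefore given beside those of all 8 libraries. This choice rests partly on the collagen levels themselves, so collagen p-values from replicates 1 to 3 are descriptive.

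The upstream sequences of 3 chains are shown because Col6a1 and Col8a1 were the chains past the test threshold with all libraries, and Col1a2 was one that did not go with them. Each is the 250 bases before the RefSeq start site (GRCm38.p6, from the RefSeq promoter table), 5′ to 3′ on the strand of the gene. Capitals mark 3 promoter motifs on either strand: the TATA box searched as TATAAA, the CCAAT box searched as CCAAT and the GC box searched as GGGCGG. No matches overlapped in these windows.
Col6a1, chr10:76726045-76726294, minus strand: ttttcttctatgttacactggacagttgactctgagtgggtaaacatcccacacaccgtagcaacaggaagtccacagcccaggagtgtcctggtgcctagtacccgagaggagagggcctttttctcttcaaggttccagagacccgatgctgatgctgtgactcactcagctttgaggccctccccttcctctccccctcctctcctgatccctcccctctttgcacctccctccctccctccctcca
Col8a1, chr16:57754738-57754987, minus strand: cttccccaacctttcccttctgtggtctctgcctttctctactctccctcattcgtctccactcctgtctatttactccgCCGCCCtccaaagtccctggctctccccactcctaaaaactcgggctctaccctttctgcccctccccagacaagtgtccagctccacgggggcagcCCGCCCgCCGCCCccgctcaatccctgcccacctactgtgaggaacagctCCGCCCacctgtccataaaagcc
Col1a2, chr6:4505368-4505617, plus strand: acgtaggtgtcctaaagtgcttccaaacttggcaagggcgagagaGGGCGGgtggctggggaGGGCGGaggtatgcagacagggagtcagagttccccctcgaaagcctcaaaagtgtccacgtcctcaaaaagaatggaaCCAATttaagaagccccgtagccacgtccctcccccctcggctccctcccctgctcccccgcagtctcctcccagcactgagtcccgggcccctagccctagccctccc
The Col8a1 window held 4 GC box matches, the Col1a2 window 2 and a CCAAT box, and the Col6a1 window none of the 3 motifs. Of 32851 promoter windows of this length, 12.4% held the TATA box, 33.8% the CCAAT box and 32.7% the GC box. Among 36 windows of the 33 members in the table, 4, 12 and 22 did, in that order. Col1a1, Col2a1, Col4a3, Col5a2, Col9a3, Col12a1, Col14a1 and Col26a1 were not matched.

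Collagen chain genes were lower in CD54-positive than in CD54-negative libraries in most cases, and the difference was tested with edgeR's quasi-likelihood test across all genes. Of 39 chains with enough counts to be tested, 35 had a log2 fold change below 0, beside 52.3% of all 13575 genes tested. The median log2 fold change of the chains was -2.09, and that of all genes was -0.07. The count below 0 was 34 with upper-quartile scaling or library sizes only, which placed Col1a2 above 0. With all 8 libraries 2 chains fell and none rose (Benjamini-Hochberg adjusted p under 0.05), where 0.273% of all genes fell and 1.22% rose. The 2 were Col8a1 and Col6a1. At an unadjusted p under 0.05, 14 chains were lower and none higher, where 8.96% of all genes were lower and 7.96% higher. Every CD54-negative library was above every CD54-positive library for 5 chains, namely Col8a1, Col6a1, Col6a2, Col5a1 and Col9a3, and for 3.89% of all genes.

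Among replicates 1 to 3 alone, 14 of 38 chains tested fell and none rose, where 1.38% of all 13778 genes tested fell and 1.59% rose. The 14 were Col8a1, Col6a1, Col6a2, Col6a3, Col4a1, Col4a2, Col4a5, Col15a1, Col9a1, Col11a1, Col2a1, Col3a1, Col5a2 and Col16a1. Of the 38, 36 had values below 0, beside 49.7% of all genes, with a median of -2.20 for the chains and 0.01 for all genes. For 24 of the 38 chains, all 3 CD54-negative libraries were above all 3 CD54-positive ones, as for 13.0% of all genes. These 6 libraries are part of the 8, so the second fit is no independent repeat of the first. The libraries left out were set aside partly for their collagen levels, the same values that are tested here. The adjusted p-values of the second fit do not account for that choice. In bulk RNA, fewer cells of a collagen-making type and less collagen RNA per cell cannot be told apart.

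**Figure D1:**
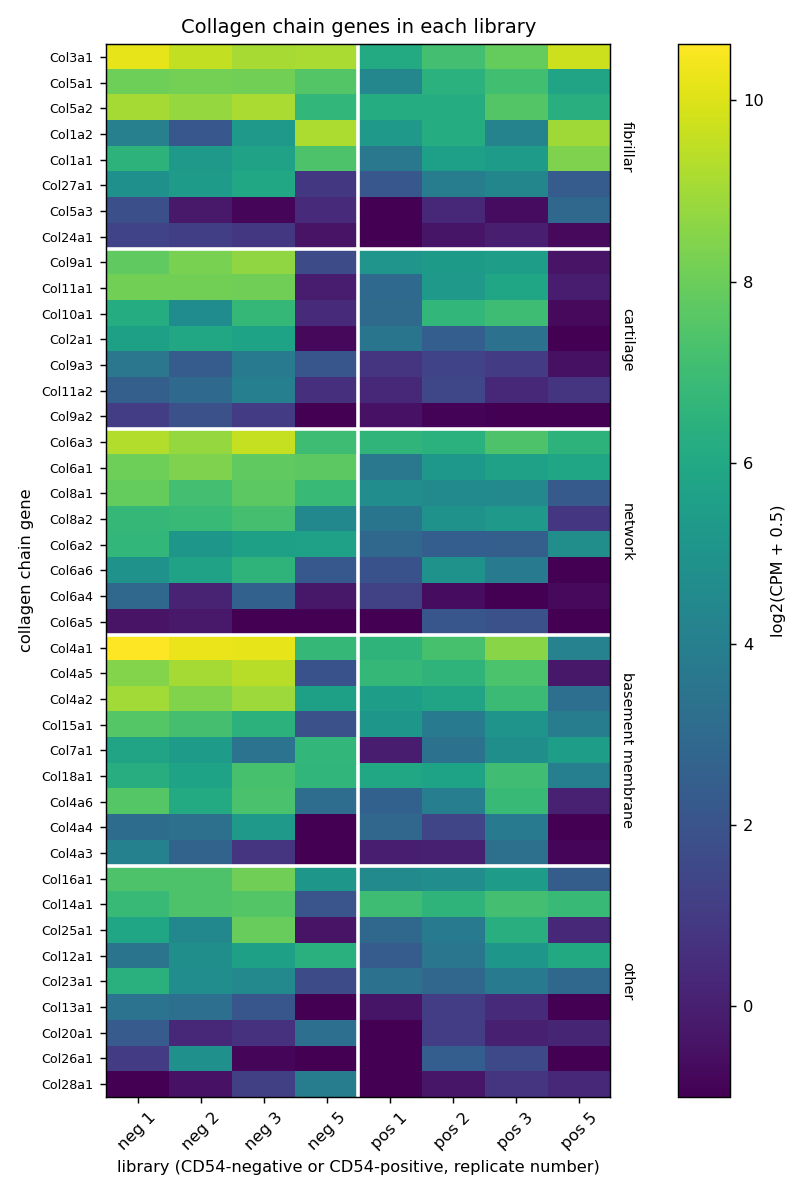
Each row is 1 of the 41 collagen chain genes and each column 1 library, coloured by log2(CPM + 0.5), with white lines between classes and between CD54-negative (neg) and CD54-positive (pos) libraries. CD54-negative replicates 1 to 3 form the brightest block, while Col1a2 is brightest in the libraries numbered 5.

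**Figure D2:**
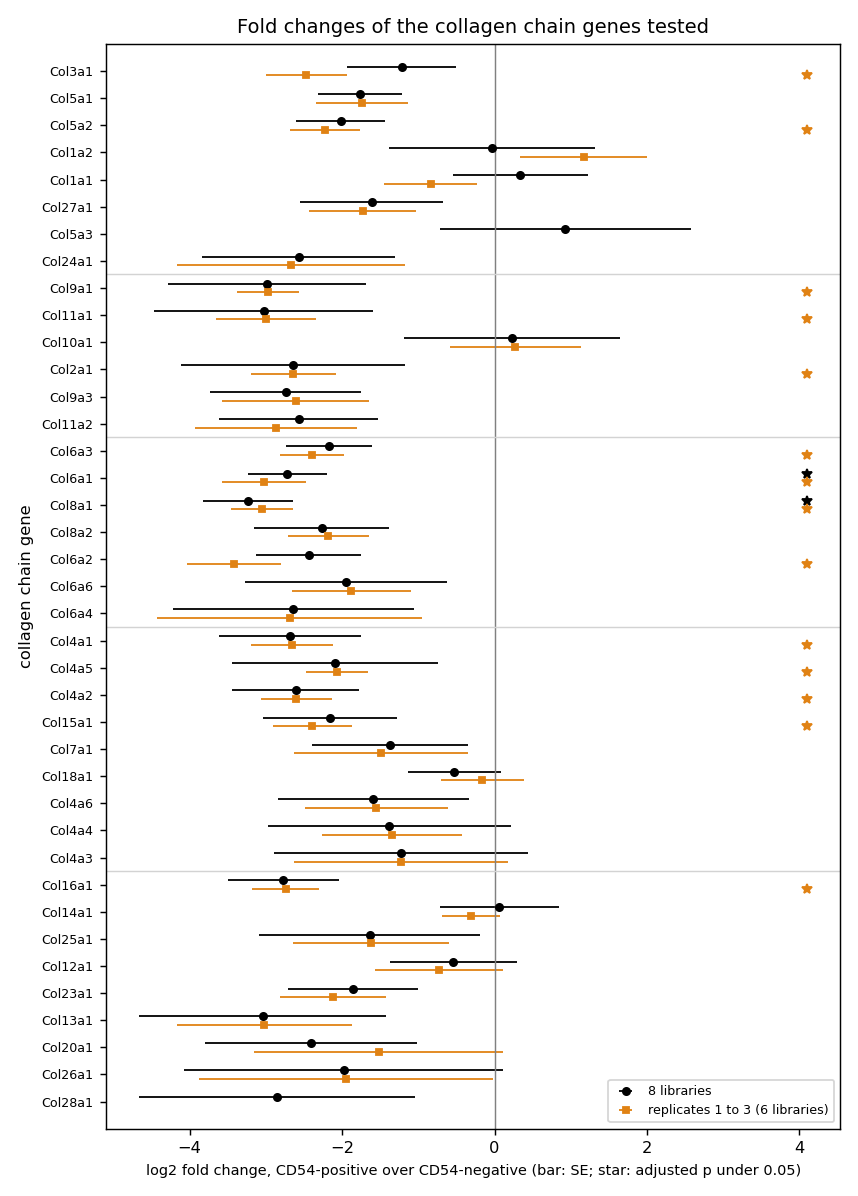
Points give the log2 fold change of CD54-positive over CD54-negative for the 39 chains tested, with all 8 libraries (black circles) and with replicates 1 to 3 (orange squares); bars are standard errors and stars mark adjusted p under 0.05. All points of the network and basement membrane chains lie below 0, with 2 black and 14 orange stars among all chains.

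The network chains held both genes that passed with all libraries. Col8a1, which encodes the alpha-1 chain of the short-chain type VIII collagen, stood at 232, 143, 208 and 113 CPM in CD54-negative and at 25.4, 22.7, 21.7 and 4.47 CPM in CD54-positive replicates 1, 2, 3 and 5. The groups did not overlap, and CD54-positive replicate 5 was the lowest of all. Col8a1 fell from 174 ± 55.6 to 18.6 ± 9.53 CPM (SD, n = 4 libraries each), or 9.35-fold. On the log2 scale this was -3.23 ± 0.59 (SE), with an edgeR adjusted p of 0.0258. Its partner Col8a2 was at 106, 113, 148 and 21.3 CPM in CD54-negative and 11, 30.3, 38.1 and 1.27 CPM in CD54-positive libraries. Here the groups overlapped through CD54-negative replicate 5, and Col8a2 was not past the threshold (log2 fold change -2.27 ± 0.88; edgeR adjusted p = 0.227; 0.0575 among replicates 1 to 3).

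Col6a1, Col6a2 and Col6a3 encode the 3 chains that assemble into the common form of type VI collagen. Col6a1 had 269, 332, 217 and 204 CPM in CD54-negative and 12.2, 36.2, 49.9 and 56.5 CPM in CD54-positive replicates 1, 2, 3 and 5. All CD54-negative libraries, replicate 5 included, were above all CD54-positive ones. Col6a1 fell from 255 ± 58.4 to 38.7 ± 19.6 CPM (SD, n = 4), or 6.6-fold. On the log2 scale this was -2.72 ± 0.52 (SE), with an edgeR adjusted p of 0.0327. Col6a2 had 103, 34.6, 48.3 and 49.3 CPM against 7.05, 5.08, 5.21 and 26.1 CPM, again without overlap. Its log2 fold change was -2.44 ± 0.69 with all libraries (edgeR adjusted p = 0.111) and -3.42 ± 0.62 among replicates 1 to 3 (edgeR adjusted p = 0.0263). Col6a3, the large chain of the heterotrimer, had 621, 438, 776 and 129 CPM against 96.0, 85.7, 164 and 91.5 CPM. CD54-negative replicate 5 lay between the CD54-positive values, and the log2 fold change was -2.17 ± 0.56 with all libraries (edgeR adjusted p = 0.0824) and -2.39 ± 0.42 among replicates 1 to 3 (0.0236). All 7 network chains tested had values below 0 with all libraries (median -2.44), beside 52.3% of all genes. Among replicates 1 to 3, 4 of them fell, beside 1.38% of all genes.

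The calls of Col8a1 and Col6a1 depended on single libraries, and leaving 1 out also leaves fewer to test. Both lost the call without CD54-negative replicate 1 or 2 or without CD54-positive replicate 1, 2 or 3, and Col6a1 also without CD54-positive replicate 5. Over the 8 fits that leave out 1 library, the adjusted p ranged from 0.0171 to 0.0928 for Col8a1 and from 0.0207 to 0.111 for Col6a1, with log2 fold changes of -3.41 to -2.88 and -2.95 to -2.45. Without CD54-negative replicate 5, 7 of 40 chains tested fell (1.69% of all genes lower, 2.36% higher). Without CD54-positive replicate 5 it was 1 chain (0.0142% of all genes lower, 0.398% higher), and without CD54-negative replicate 3 it was 2 (0.336% and 0.847%). With any 1 of the other 5 libraries left out it was 0, where at most 0.0637% of all genes were lower. On the same 13575 genes DESeq2 called 11 chains lower (4.78% of all genes lower, 4.3% higher), and limma-voom with sample weights 9 (2.57% and 3.39%). Without a filter on low counts edgeR tested 25565 genes and all 41 chains and called 4 chains lower (0.469% of all genes lower, 0.958% higher). With the replicate number as an added term, edgeR called 9 chains lower (1.92% of all genes lower, 2.06% higher). They were Col8a1, Col8a2, Col6a1, Col6a2, Col4a1, Col4a2, Col4a5, Col9a1 and Col16a1. The labels do not say whether a shared number marks a shared animal. None of these settings called a chain higher.

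Among basement membrane chains, type IV collagen was abundant in CD54-negative replicates 1 to 3. Col4a1, the alpha-1 chain of the most widespread type IV molecule, had 1577, 1226, 1185 and 107 CPM in CD54-negative and 94.0, 151, 378 and 17.4 CPM in CD54-positive replicates 1, 2, 3 and 5. CD54-negative replicate 5 was low and fell among the CD54-positive libraries. Col4a1 was 6.31-fold lower among replicates 1 to 3 (log2 fold change -2.66 ± 0.54; edgeR adjusted p = 0.0361), while the same fold with all libraries was not past the threshold (-2.68 ± 0.93; adjusted p = 0.182). Its partner Col4a2 had 519, 346, 488 and 48.4 CPM against 45.9, 55.0, 119 and 8.84 CPM, with log2 fold changes of -2.60 ± 0.47 (replicates 1 to 3; edgeR adjusted p = 0.0264) and -2.61 ± 0.83 (all libraries; 0.145). Both libraries numbered 5 were low in these chains, and the CD54-positive one was lower than the CD54-negative one, by log2 ratios of -2.62 for Col4a1 and -2.45 for Col4a2.

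Col4a1 and Col4a2 are read in opposite directions from neighbouring starts. In RefSeq on GRCm38.p6 the Col4a2 start is at position 11312805 of chromosome 8 on the plus strand and the Col4a1 start at 11312826 on the minus strand. The 22 bases that both starts bound, chr8:11312805-11312826 on the plus strand, are shown because the levels of this pair moved together across libraries. By these positions both genes are read into the stretch, each from its own end. The stretch thus holds the first bases of both and is not upstream of either start, unlike the windows above. Motifs are not marked in this stretch, although it holds the GC box sequence GGGCGG. Any part of the stretch in the levels was not tested.
Col4a2-Col4a1 start sites: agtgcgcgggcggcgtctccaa
The ratio of Col4a1 to Col4a2 in CPM per kilobase of deposited length was 4.31, 5.02, 3.44 and 3.12 in CD54-negative and 2.90, 3.89, 4.49 and 2.79 in CD54-positive replicates 1, 2, 3 and 5. It thus varied 1.80-fold over the 8 libraries while Col4a1 itself went from 17.4 to 1577 CPM. The same ratio of Col1a1 to Col1a2, the chains of type I collagen, varied 34.5-fold, from 0.292 in CD54-negative replicate 5 to 10.1 in CD54-negative replicate 2. Col6a1 to Col6a2 varied 5.53-fold. For Col4a5 to Col4a6, also type IV chains, it varied 48.1-fold, from 0.783 in CD54-negative replicate 5 to 37.6 in CD54-positive replicate 1. The other pairs taken were Col5a1 to Col5a2 (6.5-fold), Col8a1 to Col8a2 (9.28-fold), Col6a3 to Col6a1 (12.4-fold) and Col9a1 to Col9a3 (93.1-fold). These ratios are a description of 8 libraries, and ratios of low values carry more counting and amplification error.

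Col4a5, a chain of the specialised type IV collagen of kidney and other basement membranes, had 349, 535, 670 and 3.33 CPM in CD54-negative and 107, 94.4, 163 and 0.331 CPM in CD54-positive libraries. Both libraries numbered 5 were far below the other 6. Col4a5 fell among replicates 1 to 3 (log2 fold change -2.07 ± 0.41; edgeR adjusted p = 0.0334) and was not past the threshold with all libraries (-2.09 ± 1.35; 0.460). Col15a1, a proteoglycan-like collagen that links basement membranes to the matrix, had 191, 148, 87.9 and 3.16 CPM against 35.6, 13.8, 31.9 and 14.9 CPM. Its order was opposite in the libraries numbered 5 (log2 ratio 2.24), and it fell among replicates 1 to 3 (log2 fold change -2.39 ± 0.52; edgeR adjusted p = 0.0421; 0.242 with all libraries). All 9 basement membrane chains had values below 0 with all libraries (median -1.59), beside 52.3% of all genes. Among replicates 1 to 3, 4 of them fell, beside 1.38% of all genes. Col18a1, the source of endostatin, had values nearest to 0 in this class, -0.53 ± 0.61 with all libraries (edgeR adjusted p = 0.696) and -0.16 ± 0.54 among replicates 1 to 3.

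The 4 most abundant cartilage chains, Col9a1, Col11a1, Col10a1 and Col2a1, were at 5.05 CPM or more in every library numbered 1 to 3 and at 2.63 CPM or less in those numbered 5. Col9a1, a fibril-associated chain of cartilage, had 220, 308, 408 and 2.63 CPM in CD54-negative and 32.6, 39.8, 45 and 0.276 CPM in CD54-positive replicates 1, 2, 3 and 5. Col11a1, which sets the diameter of cartilage fibrils, had 279, 285, 278 and 0.439 CPM against 7.36, 37.8, 57.8 and 0.442 CPM. Col2a1, the main fibrillar chain of cartilage, had 48.6, 61.8, 52.8 and 0.0877 CPM against 11, 5.05, 9.95 and 0 CPM. In replicates 1 to 3 none of these 3 chains overlapped between the groups, and in the libraries numbered 5 Col2a1 was under the detection floor. Among replicates 1 to 3, Col9a1 fell 7.84-fold (log2 fold change -2.97 ± 0.41; edgeR adjusted p = 0.0115), Col11a1 8.03-fold (-3.00 ± 0.66; 0.0435) and Col2a1 6.22-fold (-2.64 ± 0.56; 0.038). With all libraries their log2 fold changes were -2.99, -3.03 and -2.65 and none was past the threshold (edgeR adjusted p from 0.274 to 0.387).

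Col10a1, the collagen of hypertrophic cartilage, did not go with the rest of its class. It had 73.3, 24.9, 105 and 0.789 CPM in CD54-negative and 7.56, 103, 130 and 0.110 CPM in CD54-positive libraries. CD54-positive replicates 2 and 3 were in the range of the highest CD54-negative libraries or above it, and replicate 1 was low. Its log2 fold change was 0.23 ± 1.42 (edgeR adjusted p = 0.951) and 0.27 ± 0.86 among replicates 1 to 3 (0.907). The other 5 cartilage chains tested with all libraries had values below 0, beside 52.3% of all genes.

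Among fibrillar chains, Col3a1, Col1a1 and Col1a2 were not low in the libraries numbered 5. Col3a1, the chain of type III collagen in loose connective tissue, had 1165, 764, 551 and 566 CPM in CD54-negative and 67.5, 140, 236 and 863 CPM in CD54-positive replicates 1, 2, 3 and 5. CD54-positive replicate 5 was above 3 of the CD54-negative libraries, and without the number 5 the groups did not overlap. Col3a1 fell 5.52-fold among replicates 1 to 3 (log2 fold change -2.47 ± 0.53; edgeR adjusted p = 0.0414) and was at -1.22 ± 0.71 with all libraries (0.412).

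The chains of type I collagen, the main fibre of bone and scar, were not past the threshold. Col1a1 had 91.2, 37.7, 52.1 and 164 CPM in CD54-negative and 12, 47.1, 40.5 and 336 CPM in CD54-positive replicates 1, 2, 3 and 5. Its log2 fold change was 0.34 ± 0.88 with all libraries (edgeR adjusted p = 0.881) and -0.84 ± 0.61 among replicates 1 to 3 (0.518). Col1a2 had 16.1, 3.91, 38.3 and 586 CPM against 38.1, 73.2, 17.7 and 500 CPM. The libraries numbered 5 were thus the highest in both groups, and the other 6 overlapped. The log2 fold change of Col1a2 was -0.03 ± 1.35 with all libraries (edgeR adjusted p = 0.992) and 1.17 ± 0.83 among replicates 1 to 3 (0.504), and it was above 0 with upper-quartile scaling (0.18) and with library sizes only (0.49). Standard errors of this size do not show that type I collagen was equal in the fractions.

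The type V chains help to start type I fibrils and limit their width. Col5a1 had 262, 288, 280 and 185 CPM in CD54-negative and 20.1, 85.3, 138 and 55.3 CPM in CD54-positive libraries, without overlap. It was not past the threshold (log2 fold change -1.76 ± 0.55, edgeR adjusted p = 0.144; -1.74 ± 0.60 among replicates 1 to 3, 0.152). Col5a2 had 530, 443, 568 and 103 CPM against 72.6, 72.1, 180 and 80.7 CPM, with CD54-negative replicate 5 below CD54-positive replicate 3. Col5a2 fell among replicates 1 to 3 (log2 fold change -2.23 ± 0.46; edgeR adjusted p = 0.0371; 0.119 with all libraries).

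Among the fibril-associated, transmembrane and other chains, Col16a1, a fibril-associated collagen, had 168, 167, 274 and 35.1 CPM in CD54-negative and 23.2, 25.2, 41.1 and 4.90 CPM in CD54-positive libraries. Within each set, replicates 1 to 3 and the libraries numbered 5, the CD54-negative values were the higher ones. Col16a1 fell 6.70-fold among replicates 1 to 3 (log2 fold change -2.74 ± 0.44; edgeR adjusted p = 0.017; 0.0868 with all libraries). Col14a1, which binds the surface of mature fibrils, had 112, 164, 184 and 3.68 CPM against 130, 94.2, 141 and 118 CPM. Apart from the low value of CD54-negative replicate 5 the groups overlapped, with a fitted log2 difference of 0.06 ± 0.78 (edgeR adjusted p = 0.976; -0.31 ± 0.38 and 0.722 among replicates 1 to 3). Col12a1, a relative of Col14a1 found in tendon and stroma, had 10.6, 26.9, 48.3 and 83.2 CPM against 4.64, 11.4, 34.6 and 65.5 CPM, with a log2 fold change of -0.54 ± 0.83 (adjusted p = 0.782 by edgeR). Col25a1, a transmembrane collagen of neurons and developing muscle, had 57.0, 21.1, 241 and 0.263 CPM against 6.90, 13.7, 80.9 and 0.773 CPM and was not past the threshold (-1.64 ± 1.45; adjusted p = 0.6). For both chains the values of the groups overlapped.

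The other 19 members were Col5a3, Col24a1 and Col27a1 (fibrillar), Col9a2, Col9a3 and Col11a2 (cartilage), Col6a4, Col6a5 and Col6a6 (network), Col4a3, Col4a4, Col4a6, Col7a1 and Col18a1 (basement membrane), and Col13a1, Col20a1, Col23a1, Col26a1 and Col28a1. None exceeded 186 CPM in any library, the value of Col4a6 in CD54-negative replicate 1. Col6a5 and Col9a2 had too few counts to be tested with all libraries. Of the 17 tested, 16 had log2 fold changes below 0, beside 52.3% of all genes. These 16 lay between -3.04 and -0.53, with edgeR adjusted p from 0.200 to 0.753. The exception was Col5a3 at 0.93 ± 1.65 (edgeR adjusted p = 0.817), a low chain that reached 7.18 CPM in CD54-positive replicate 5. Col6a5 had 3.87 and 3.24 CPM in CD54-positive replicates 2 and 3, none in the other CD54-positive libraries, and no more than 0.356 CPM in any CD54-negative library.

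Levels can be compared between chains only per length. By mean CPM per kilobase of deposited length, Col3a1 (640) was highest, followed by Col4a1 (173) and Col16a1 (145). The deposited lengths of Col3a1 and Col16a1, 851 and 637 bases, are much shorter than their longest GENCODE M21 transcripts of 5564 and 5206 bases. With the longest transcript as the length, an alternative chosen after seeing the data, Col3a1 (97.8) and Col4a1 (89.5) stayed first and second and Col16a1 (17.7) was at rank 14. Col3a1 was above Col4a1 in all 8 libraries with the deposited lengths and in 3 of 8 with the longest transcripts, so their order depends on the length used.

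The chains were also summed by class. Basement membrane chains summed to 2975, 2435, 2790 and 372 CPM in CD54-negative and 356, 395, 994 and 102 CPM in CD54-positive replicates 1, 2, 3 and 5. Cartilage chains summed to 640, 695, 875 and 8.77 CPM against 60.7, 190, 245 and 2.21 CPM. Network chains summed to 1370, 1112, 1496 and 520 CPM against 157, 214, 295 and 180 CPM. In these 3 classes the CD54-negative sum was the higher one in replicates 1 to 3 and in the libraries numbered 5, by 4.70-, 4.46- and 5.97-fold in the means of the former and by 3.67-, 3.97- and 2.89-fold in the latter. Fibrillar chains summed to 2097, 1580, 1554 and 1607 CPM against 214, 434, 633 and 1847 CPM. For them the CD54-negative mean was 4.08-fold higher in replicates 1 to 3, and in the libraries numbered 5 the 2 sums were close, with a CD54-negative to CD54-positive ratio of 0.870. The fibril-associated, transmembrane and other chains summed to 448, 441, 776 and 149 CPM against 175, 160, 316 and 198 CPM. Their CD54-negative mean was 2.56-fold higher in replicates 1 to 3, and the ratio in the libraries numbered 5 was 0.752. The network class was the one in which the lowest CD54-negative library was above the highest CD54-positive library with all 8 libraries. In summed CPM, CD54-negative replicate 5 held about as much fibrillar collagen as the other CD54-negative libraries but 6.54 times less basement membrane and 72.9 times less cartilage collagen than the lowest of them. Its fibrillar sum was made up of other chains, with Col1a2 at 586 CPM (3.91 to 38.3 in the others) and Col5a2 at 103 CPM (443 to 568). The pair numbered 5 is 1 library per group, so its ratios have no replicate check, and no test was made on the sums.

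**Figure D3:**
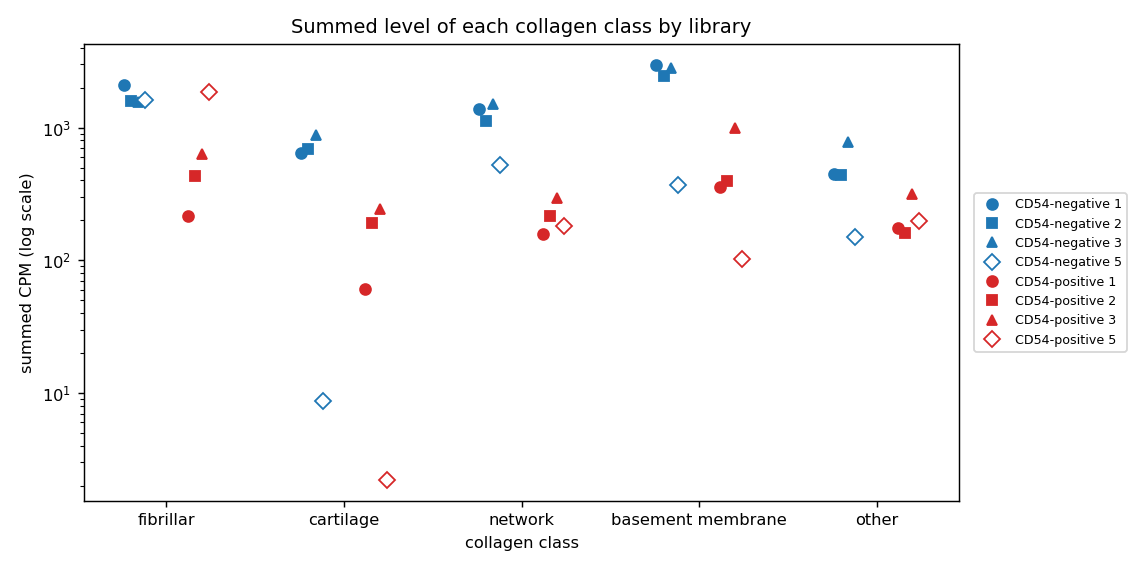
Points are the summed CPM of each collagen class (log axis) in each library, blue for CD54-negative and red for CD54-positive, with open diamonds for the libraries numbered 5. The diamonds are level with the CD54-negative points for fibrillar chains (1607 and 1847 CPM) and far below them for cartilage chains (8.77 and 2.21 CPM).

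**Figure D4:**
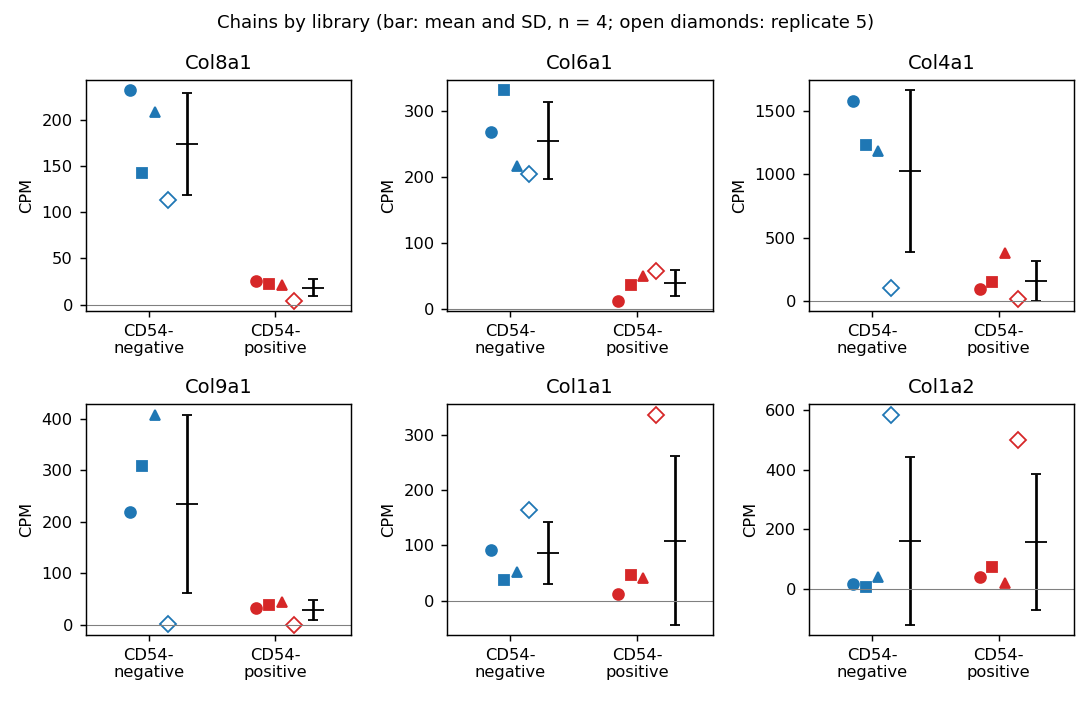
Points are the CPM of 6 chains in each library, with filled markers for replicates 1 to 3, open diamonds for replicate 5 and bars for the mean and SD of 4 libraries. Col8a1 and Col6a1 separate the groups in all libraries, Col4a1 and Col9a1 only outside the number 5, and Col1a1 and Col1a2 are highest in the libraries numbered 5 in both groups.

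Genes that make, bind, take up or degrade collagen were read from 6 fixed lists (75 genes in the table). With all libraries 1 of 67 tested rose and none fell, beside 1.22% and 0.273% of all genes, so the count is near that share. Among replicates 1 to 3, 11 of 66 fell and 2 rose, beside 1.38% and 1.59% of all genes. Of the enzymes that hydroxylate and glycosylate collagen, the prolyl 3-hydroxylase gene P3h1 (196 against 45.5 CPM on average over CD54-negative and CD54-positive replicates 1 to 3; log2 fold change -2.08 ± 0.42; edgeR adjusted p = 0.0354) and P3h4 (75.7 against 14.0 CPM; -2.41 ± 0.53; 0.0426) fell among replicates 1 to 3. The general disulfide isomerase and prolyl 4-hydroxylase subunit gene P4hb and Crtap, a partner of P3h1, were not past the threshold (log2 fold changes -0.38 ± 0.39 and -0.90 ± 0.36; edgeR adjusted p = 0.662 and 0.214). In the folding and export list Serpinh1, the collagen-specific chaperone HSP47, had 1075, 727, 1221 and 153 CPM in CD54-negative and 147, 179, 321 and 47.0 CPM in CD54-positive libraries. It fell among replicates 1 to 3 (-2.21 ± 0.43; edgeR adjusted p = 0.0334; 0.156 with all libraries), as did the prolyl isomerase gene Fkbp14 (580 against 54.6 CPM; 0.0387) and Sparc, a collagen-binding matrix protein gene (2141 against 313 CPM; 0.0155). All 14 genes of this list had values below 0 with all libraries, beside 52.3% of all genes, with a median of -1.06 beside -0.07. This was not particular to the list. Below 0 were also 10 of 10 fibril-binding genes tested (median -1.51) and 10 of 11 for processing and cross-linking (-1.7). For hydroxylation and glycosylation it was 11 of 14 (-0.96), and for receptors and uptake 6 of 10 (-0.82).

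In the processing and cross-linking list Pcolce, the enhancer of procollagen C-proteinase, fell among replicates 1 to 3 (-2.18 ± 0.37 on the log2 scale, from 419 to 90.8 CPM; edgeR adjusted p = 0.02). The transglutaminase gene Tgm2 was not past the threshold, and its highest value, 2155 CPM, was in CD54-negative replicate 5. Among fibril-binding genes Fn1, which encodes fibronectin, had 13286, 13876, 11679 and 6348 CPM in CD54-negative and 1855, 2282, 3527 and 1736 CPM in CD54-positive libraries, without overlap. Fn1 and the proteoglycan gene Fmod fell among replicates 1 to 3 (edgeR adjusted p = 0.0233 for both; 0.0571 and 0.380 with all libraries), and the proteoglycan gene Bgn was not past the threshold (-1.85 ± 0.72; 0.197). Of the receptors, the collagen-activated kinase genes Ddr1 (38.5 against 2.90 CPM; edgeR adjusted p = 0.032) and Ddr2 (313 against 85.6 CPM; 0.0483) fell among replicates 1 to 3. Moving the other way were Mrc1, the mannose receptor gene of macrophages, which rose with all libraries (log2 fold change 3.67 ± 0.43; edgeR adjusted p = 0.00749), and Lair1, an inhibitory collagen receptor gene of leukocytes, which rose among replicates 1 to 3 (51.2 against 324 CPM; 2.67 ± 0.50; 0.0276). The integrin gene Itgb1 was not past the threshold (-0.62 ± 0.39 among replicates 1 to 3; edgeR adjusted p = 0.447). Among collagen-degrading enzymes the gelatinase gene Mmp2 fell among replicates 1 to 3 (2444 against 538 CPM, edgeR adjusted p = 0.0421). The neutrophil gelatinase gene Mmp9 and the cathepsin gene Ctsk were not past the threshold (0.720 and 0.264). The collagenase gene Mmp8 was just short of it, at -3.25 ± 0.75 among replicates 1 to 3 (edgeR adjusted p = 0.0504) and -3.89 ± 0.90 with all libraries (0.0583). Of 8 genes tested in this list, 5 had values below 0 with all libraries, beside 52.3% of all genes.

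Marker lists of cell types that make collagen were summed in the same libraries, without a test. The 13 fibroblast markers summed to 667 to 3571 CPM in CD54-negative and 520 to 2807 CPM in CD54-positive libraries, and 8 of them were at or above the floor in every library. None of the 11 fibroblast markers tested passed in either fit. With all libraries 9 had log2 fold changes below 0, beside 52.3% of all genes, the exceptions being Thy1 (2.26) and Pdpn (1.19). The highest CD54-positive sum of fibroblast markers was in replicate 3, which also had the highest collagen sum of its group (2483 CPM). The 11 chondrocyte markers summed to 78.0 to 991 CPM and 9.28 to 194 CPM, and 2 of them were at or above the floor in every library. Matn1, Matn3 and Snorc reached no more than 0.665, 0.474 and 0.307 CPM in any library. Of 7 tested among replicates 1 to 3, 3 fell, namely Acan, Hapln1 and Sox5, beside 1.38% of all genes. Acan, the cartilage proteoglycan aggrecan, had 197, 234, 187 and 0 CPM against 3.59, 9.27, 4.1 and 0 CPM. Sox9, the transcription factor that defines the lineage, had 16.3, 19.3, 6.07 and 53.6 CPM against 4.09, 6.97, 29.9 and 4.91 CPM, with overlap (log2 fold change -0.01 among replicates 1 to 3; edgeR adjusted p = 0.998). The 8 pericyte and smooth muscle markers summed to 60.5 to 168 CPM and 9.55 to 49.2 CPM, with the smooth muscle myosin gene Myh11 under the floor in every library, and the 6 osteoblast markers to 24.8 to 296 CPM and 6.94 to 37.4 CPM, with the highest sum in CD54-negative replicate 5. Endothelial markers (10 genes) were at 4.12 to 40.3 CPM and 25.6 to 69.2 CPM, and epithelial and mammary tumour markers (9 genes) at 1.97 to 68.6 CPM and 8.17 to 24.9 CPM. The neutrophil markers expected of the sort (14 genes) summed to 7070 to 43980 CPM in CD54-negative and 2210 to 4886 CPM in CD54-positive libraries, and 13 macrophage markers to 791 to 1097 CPM and 5419 to 15570 CPM. With all libraries 6 of 14 neutrophil markers fell, beside 0.273% of all genes, and all 14 were below 0 (median log2 fold change -3.36). Of the 13 macrophage markers 8 rose, beside 1.22% of all genes, and none was below 0 (median 2.73). CD54-negative replicate 5, low in most collagens, was the highest in neutrophil markers. The part of these cell types, or of amplification from 150 pg of RNA, in the collagen differences was not tested.

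**Figure D5:**
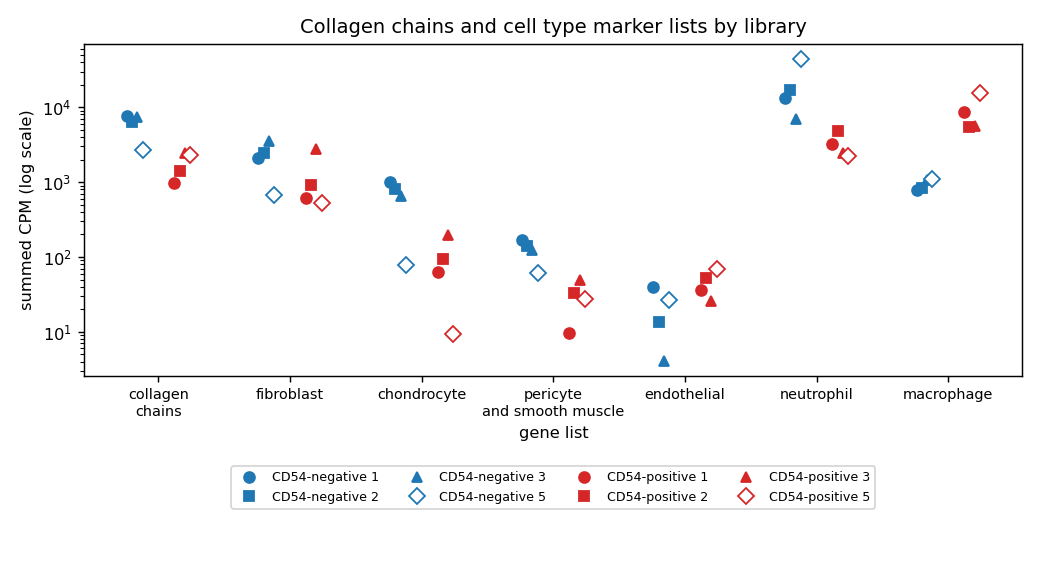
Points are the summed CPM (log axis) of the collagen chains and of 6 marker lists in each library, blue for CD54-negative and red for CD54-positive, with open diamonds for the libraries numbered 5. Collagen, fibroblast and chondrocyte sums are highest in CD54-negative replicates 1 to 3, apart from fibroblast markers in CD54-positive replicate 3, and macrophage sums are highest in CD54-positive libraries.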

How the data were processed

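Per the submitters' processing notes, reads were trimmed with Trim Galore 0.6.6 and quantified with Salmon 1.9.0; the notes name the build GRCm39. Which annotation and settings were used and how transcripts were summed to genes is not stated there. In the authors' deposited table, 25669 rows hold an estimated count per library and 1 length per gene. Of these, 88 identifiers were listed under several symbols with identical values and were kept once, leaving 25572, of which 25343 were found in the name table and 6482 took their symbol from it. Columns were matched to samples by the names in their descriptions, per the labels.

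Counts were rounded, filtered with filterByExpr by group (13575 genes kept), scaled by TMM and compared by the quasi-likelihood test of edgeR 4.0.16 (R 4.3.3), with robust dispersion estimates. Group was the only term, and p-values were Benjamini-Hochberg adjusted over all genes tested. The standard error is the size of the log2 fold change over the square root of F. The fit without the libraries numbered 5 (6 libraries) repeats all these steps. Sums over classes and lists were not tested. The biological coefficient of variation was 0.858. The fitting code was tested on simulated counts.

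The members, classes and lists were chosen with earlier results of these data known. Members named with values in every library were those past the threshold with all libraries or among replicates 1 to 3, the 4 of each class with the highest mean CPM per kilobase, and the chains of types I, III, IV (Col4a1 and Col4a2) and VI. Pathway genes named were those past the threshold and the 2 of each list with the highest mean CPM per kilobase. Serpinh1, Fn1, Acan and Sox9 are given by library, after their values were seen. Thy1, Pdpn, Hapln1, Sox5, Matn1, Matn3, Snorc, Mmp8, Col5a3, Col6a5 and Col18a1 were singled out, also after their values were seen. The labels do not say whether a shared number marks a shared animal. Same-numbered libraries did not all deviate together (r across genes -0.146, 0.12, 0.154 and 0.38 for numbers 1, 2, 3 and 5). Such values cannot show that the libraries were unpaired. The main fit used no pairing, and a replicate term was tried as another setting.

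Other settings tried were DESeq2 1.42.0, limma-voom (limma 3.58.1, sample weights), scaling by RLE, by upper quartiles or by library size alone, no filter, 10 CPM in at least 4 libraries, a replicate term, each library left out and replicates 1 to 3 only. The unadjusted threshold and the transcript lengths of GENCODE M21 were added after seeing the data. The reference is of another build than the files, so coordinates are given for the RefSeq promoter windows alone.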

Additional observations from a re-analysis of the deposited data

Results flagged for a closer look

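For 11 of 82 sets of 4 libraries (41 chains in 2 groups), 1 library lay far from the other 3 of its group on the log2(CPM + 0.5) scale; chance alone flags about 1 set in 20. CD54-negative replicate 5 was low for 7 chains: Col2a1 (0.0877 CPM, the others 48.6 to 61.8), Col11a1 (0.439 CPM, the others 278 to 285), Col9a1 (2.63 CPM, the others 220 to 408), Col4a5 (3.33 CPM, the others 349 to 670), Col14a1 (3.68 CPM, the others 112 to 184), Col5a2 (103 CPM, the others 443 to 568) and Col4a1 (107 CPM, the others 1185 to 1577). CD54-positive replicate 5 was low for Col9a1 (0.276 CPM, the others 32.6 to 45), Col4a5 (0.331 CPM, the others 94.4 to 163) and Col8a1 (4.47 CPM, the others 21.7 to 25.4). CD54-positive replicate 3 was high for Col5a2 (180 CPM, the others 72.1 to 80.7).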

How the results depend on the processing

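Against 2 collagen chains past the threshold with edgeR, all of them lower, there were 11 with DESeq2, 9 with limma-voom, 4 without a filter, 14 among replicates 1 to 3 and 14 at an unadjusted p under 0.05, again all lower; with each library left out there were 0 to 7. Of all genes, 203 passed, against 1233 with DESeq2 (584 higher, 649 lower), 809 with limma-voom (460 and 349), 365 without a filter (245 and 120), 409 among replicates 1 to 3 (219 and 190) and 4 to 578 with each library left out. Of the collagen pathway lists 1 gene passed, against 18, 14, 5 and 13 in the first 4 of these settings, 3 with the filter of 10 CPM and 0 to 13 with each library left out. With the replicate block there were 9 chains, all lower (1.92% of all genes lower, 2.06% higher), 541 genes (280 higher, 261 lower) and 15 pathway genes; same-numbered libraries were not shown to be paired, and not every library correlated best with its own number. RLE, upper-quartile and library-size scaling each kept the count of 2 chains, although the 2 latter moved the median of all genes by 0.13 and 0.24; the split of all genes called was 166 higher and 37 lower with TMM, 212 and 36 with upper-quartile factors and 258 and 31 with library sizes only.

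The median of the chains stayed between -2.40 and -1.89 over 17 alternatives. Each class median moved by less than the spread between libraries of a group. That spread was wide (SD from 0.86 for fibrillar to 2.45 for cartilage chains), so staying within it says little. The basement membrane median ranged from -2.57 to -1.34, and that of the fibril-associated, transmembrane and other chains from -2.64 to -1.27. Of 647 values of single chains under an alternative, 30 changed sign, for the 9 chains listed next, none of them past the threshold with all libraries; the cause was not tested. For Col1a2 (-0.03) these were 0.18 (upper-quartile), 0.49 (library sizes), 2.15 (limma-voom), 0.02 (no filter), 0.09 (10 CPM), 0.86 (replicate block) and 1.17 (replicates 1 to 3), with -1.83 to 3.0 when a library was left out. Col1a1 (0.34) had -0.30 with limma-voom, -0.39 with the block and -0.84 among replicates 1 to 3, with -1.34 to 0.83 when a library was left out. Col10a1 (0.23) had -0.48 with limma-voom and -0.74 with the block, with -0.47 to 0.86 when a library was left out, and Col14a1 (0.06) had -0.31 among replicates 1 to 3, with -0.34 to 0.37 when a library was left out. Col5a3 (0.93) had -0.59 and Col28a1 0.76 with limma-voom. When a library was left out, Col5a3 ranged from -1.75 to 2.34, Col26a1 from -3.16 to 1.78, Col12a1 from -1.29 to 0.02 and Col4a3 from -4.05 to 0.07.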
